A study of Mus musculus with 12 samples.

Results

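The lysosomal genes described here encode the enzymes, membrane proteins and proton pump of the lysosome. They were taken by symbol from a list of 42 genes, of which 38 were measured among the 19505 named genes on the arrays. The 38 are 10 cathepsins, 6 glycosidases, 9 lipid, protein and regulatory factors, 4 membrane proteins and 9 subunits of the vacuolar ATPase (V-ATPase). The other 4 listed genes, Ctsd, Glb1, Cd68 and Atp6v0c, were not analysed here. Each member was read by 1 transcript cluster, the set of probes that the array assigns to a gene.

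The study followed white matter astrocytes of C57BL/6 mice during feeding with cuprizone, a toxin that chelates copper and leads to loss of oligodendrocytes and their myelin. Wild-type mice received 0.2% (w/w) cuprizone in powdered food for 0, 3 or 12 weeks, and mice deficient in GnT-IX, the glycosyltransferase encoded by Mgat5b, received it for 12 weeks. Every group started the diet at 8 to 12 weeks of age and gave 3 biological replicates, each on 1 of the 12 arrays. Cells were freed from white matter with papain and captured, after blocking of Fc receptors, on anti-GLAST microbeads (GLAST is the glial glutamate transporter, gene Slc1a3). With the same starting age in every group, longer feeding would also mean a greater age at sampling, though 0-week and 3-week mice could overlap in age. No untreated group of matching age was analysed here, so diet and age cannot be told apart in the time comparisons. The number of mice behind a replicate, the way the Mgat5b gene was disrupted, and which of the pair of RNA extraction kits served which sample are not given in the sources used here. No GnT-IX-deficient group at 0 weeks was analysed here, so a difference by genotype at 12 weeks cannot be told apart from one present before the diet.

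Lysosomes break down material delivered by phagocytosis, endocytosis and autophagy. The V-ATPase pumps protons into the lumen, the low pH lets cathepsins, glycosidases and lipid hydrolases work, and heavily glycosylated membrane proteins such as LAMP1 line the boundary. Many lysosomal genes carry an E-box near their start site that the transcription factor TFEB and its relatives bind. In demyelinated white matter, microglia and macrophages take up myelin debris and digest it in lysosomes, and astrocytes also hold lysosomes and can take up debris.

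All expression values are RMA log2 values, with array medians of 5.38 to 5.45. Across genes, replicate arrays had pairwise r of 0.974 to 0.985, and arrays of different groups had r of 0.9515 to 0.9806, so the ranges overlapped. Mgat5b lay between 5.57 and 6.49 on the 9 wild-type arrays and at 3.70, 4.19 and 4.06 on the GnT-IX-deficient arrays, as the labels state. Against the wild-type arrays at 12 weeks the difference was -1.82 (SE 0.21, limma adjusted p 0.00159). Slc1a3 averaged 8.35 ± 0.44 (log2, SD, n = 3) at 0 weeks, 7.00 ± 0.51 at 3 weeks, 7.30 ± 0.28 at 12 weeks and 7.27 ± 0.31 in GnT-IX-deficient mice. The mean of 11 astrocyte markers was 9.52 to 9.87 at 0 weeks and 8.67 to 9.12 at 3 weeks. It was 9.02 to 9.58 in wild-type mice at 12 weeks and 8.62 to 9.38 in GnT-IX-deficient mice, all above the array medians. Against 0 weeks, 7 of the 11 fell at 3 weeks and 1 at 12 weeks (limma adjusted p under 0.05), while Gfap rose at both times. The median difference was -1.16 at 3 weeks and -0.51 at 12 weeks. The mean of 10 mature oligodendrocyte markers lay between 8.40 and 9.79. The mean of 15 microglia markers was 5.04 to 5.48 at 0 weeks, 8.51, 6.65 and 6.22 in replicates 1, 2 and 3 at 3 weeks, 7.57 to 8.65 at 12 weeks and 6.93 to 7.94 in GnT-IX-deficient mice. The mean of 9 choroid plexus markers was 4.58 to 6.25 in the wild-type arrays and 8.50, 7.56 and 5.93 in the GnT-IX-deficient arrays. In such mixed samples, more or fewer cells of a type and more or less RNA per cell cannot be told apart.

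RefSeq promoter windows of GRCm38.p6, each 300 bases long with 250 before and 50 after the start site, were found for 31 of the 38 members. Ctsh, Ctsb, Npc1, Asah1, Atp6v0d2, Atp6v1b2 and Atp6v1h had no entry. The E-box CACGTG, which reads the same on both strands, lay in the windows of 9 of the 31 members (29.0%), against 9.26% of the 15691 genes with a window. The longer TCACGTG, searched on both strands and nested in the E-box, lay in 7 of the 31 (22.6%) against 5.21%. The 9 genes were Lamp1, Ctsa, Ctsf, Ctsl, Gaa, Gla, Atp6v0b, Atp6v0d1 and Atp6v1a, that is 3 cathepsins, 2 glycosidases, 1 membrane protein and 3 V-ATPase subunits. The members are lysosomal genes by choice, and the E-box is a known feature of such genes, so these shares are a description. Stretches of 100 bases from 6 of these promoters are shown because they hold the motif, with each CACGTG in capitals and all sequences reading 5′ to 3′ along the gene. They lie at chr8:13159061-13159160 on the plus strand for Lamp1, chr2:164833673-164833772 on the plus strand for Ctsa, chr4:117887330-117887429 on the minus strand for Atp6v0b, chr16:44139360-44139459 on the minus strand for Atp6v1a, chr11:119267763-119267862 on the plus strand for Gaa, and chrX:134601156-134601255 on the minus strand for Gla.
Lamp1: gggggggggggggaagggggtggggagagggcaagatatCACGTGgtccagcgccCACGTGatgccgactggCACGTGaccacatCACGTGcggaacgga
Ctsa: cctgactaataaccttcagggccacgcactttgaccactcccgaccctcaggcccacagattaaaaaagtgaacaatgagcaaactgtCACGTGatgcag
Atp6v0b: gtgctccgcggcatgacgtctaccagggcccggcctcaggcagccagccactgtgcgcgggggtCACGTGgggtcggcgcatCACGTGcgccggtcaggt
Atp6v1a: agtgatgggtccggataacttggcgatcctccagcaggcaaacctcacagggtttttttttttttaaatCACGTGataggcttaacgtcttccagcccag
Gaa: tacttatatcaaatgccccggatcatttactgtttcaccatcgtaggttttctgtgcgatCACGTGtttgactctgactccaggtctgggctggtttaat
Gla: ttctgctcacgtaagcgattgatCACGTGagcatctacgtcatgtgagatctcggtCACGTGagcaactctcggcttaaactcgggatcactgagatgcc

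The Lamp1 stretch holds 4 E-boxes and the Gla and Atp6v0b stretches hold 2 each. The 9 E-box genes ranged in wild-type mice from -0.47 (Ctsf at 3 weeks) to 0.69 (Ctsl at 12 weeks) on the log2 scale against 0 weeks, and 0 of the 9 passed the test in any of the 5 comparisons described below. With 0.0256% to 4.11% of all genes called in those comparisons and 9 genes, nothing is read from that count. Of the members that did pass, Ctss, Laptm5, Ctsc and Man2b1 had a window, and none of the 4 holds CACGTG, a motif that most genes lack. Their 250 bases before the start site are shown because these genes carry the time comparisons. They lie at chr3:95526536-95526785 for Ctss, chr4:130913066-130913315 for Laptm5, chr7:88277835-88278084 for Ctsc and chr8:85083019-85083268 for Man2b1, all on the plus strand. The purine-rich GAGGAAGT, a site type of the myeloid factor PU.1, was also searched on both strands. It lay in the windows of 4 of 31 members (12.9%), namely Ctsc, Ctss, Gla and Gusb, against 3.53% of all genes with a window. In Ctsc its reverse complement is in capitals, and in Ctss it crosses the start site and so falls outside the stretch shown. These matches describe letters in a window, and binding was not measured here.
Ctss: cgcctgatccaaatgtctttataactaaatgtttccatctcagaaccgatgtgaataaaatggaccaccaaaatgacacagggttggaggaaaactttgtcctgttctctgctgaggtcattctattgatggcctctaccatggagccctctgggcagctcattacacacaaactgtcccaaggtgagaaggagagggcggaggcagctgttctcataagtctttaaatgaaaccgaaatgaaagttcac
Laptm5: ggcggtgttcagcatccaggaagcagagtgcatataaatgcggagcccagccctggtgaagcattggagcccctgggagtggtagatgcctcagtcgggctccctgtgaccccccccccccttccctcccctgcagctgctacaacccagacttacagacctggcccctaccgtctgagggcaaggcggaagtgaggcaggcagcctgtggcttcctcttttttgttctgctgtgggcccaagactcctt
Ctsc: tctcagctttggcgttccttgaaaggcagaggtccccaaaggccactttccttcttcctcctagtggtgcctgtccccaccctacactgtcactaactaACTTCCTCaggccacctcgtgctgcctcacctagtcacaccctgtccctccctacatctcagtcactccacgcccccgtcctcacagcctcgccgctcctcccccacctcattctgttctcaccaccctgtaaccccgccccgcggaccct
Man2b1: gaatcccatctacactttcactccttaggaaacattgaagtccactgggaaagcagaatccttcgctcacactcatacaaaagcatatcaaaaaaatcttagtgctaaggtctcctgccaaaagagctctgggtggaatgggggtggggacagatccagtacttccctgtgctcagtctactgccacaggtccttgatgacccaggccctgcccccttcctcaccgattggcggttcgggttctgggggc

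Of the 38 members, 33 lay above the array's median of named genes (5.46 to 5.54) on all 12 arrays. The dim exceptions were Atp6v0d2, Ctsk and Gla, which never reached it, while Ctsc reached it on 11 arrays and Npc1 on 9. RMA compresses differences of dim genes, so values for Atp6v0d2, Ctsk and Gla are the least certain.

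After 3 weeks of cuprizone, 3 members rose against 0 weeks and 0 fell: the cysteine proteases Ctss and Ctsh and the membrane protein Laptm5. They are 7.89% of the 38 members, where 3.24% of all genes passed (1.61% higher, 1.63% lower) at an adjusted p under 0.05. After 12 weeks, 6 members rose against 0 weeks (15.8%, where 2.11% of all genes were called higher) and 1 fell (2.63%, where 0.523% were called lower, 2.64% in all). The 6 were Ctss, Ctsh, Laptm5, the exopeptidase gene Ctsc, the mannosidase gene Man2b1 and the V-ATPase subunit gene Atp6v0d2, and the gene that fell was the cholesterol exporter gene Npc1. The median difference over the 38 members was 0.21 at 3 weeks and 0.20 at 12 weeks on the log2 scale, against -0.02 and -0.01 over all genes. Groups of 3 arrays did not overlap for 14 members higher and 4 lower at 3 weeks, and for 17 higher and 4 lower at 12 weeks. Over all genes the groups did not overlap for 21.2% at 3 weeks (10.8% higher, 10.5% lower) and for 20.8% at 12 weeks (10.8% higher, 9.95% lower). Both comparisons use the same 0-week arrays.

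**Figure D1:**
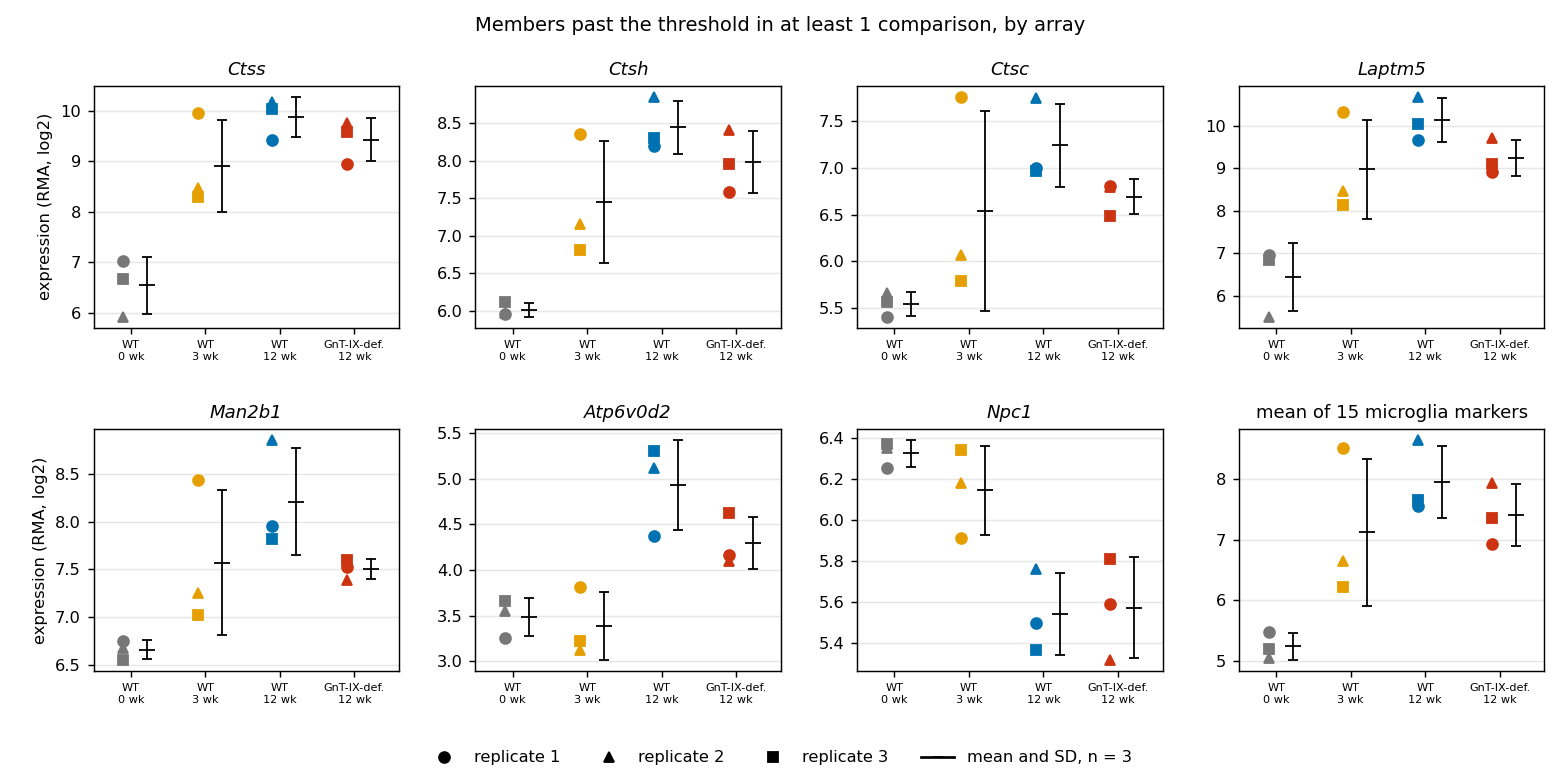
Log2 expression of the 7 members that passed the test in any comparison, 1 panel per gene, and the mean of 15 microglia markers in the last panel, with 1 point per array, the replicate number as the marker shape, and the mean and SD of each group of 3. Ctss, Laptm5 and Ctsh lie higher on every array at 3 and 12 weeks than on any 0-week array, Atp6v0d2 is higher only at 12 weeks, and Npc1 is lower at 12 weeks.

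Cathepsins had the highest class median at both times and members that pointed both ways. Ctss, a protease of antigen-presenting cells that stays active at neutral pH, read 7.02, 5.92 and 6.67 at 0 weeks, 9.96, 8.46 and 8.29 at 3 weeks, 9.41, 10.16 and 10.04 at 12 weeks and 8.95, 9.76 and 9.57 in GnT-IX-deficient mice. All 9 arrays after cuprizone lay above the 3 at 0 weeks, and replicate 1 was the highest at 3 weeks. The rise was 2.37 (log2, SE 0.39, 5.16-fold, adjusted p 0.00464) at 3 weeks and 3.33 (SE 0.39, 10.1-fold, adjusted p 0.000726) at 12 weeks.

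Ctsh, an aminopeptidase and endopeptidase, read 5.95, 5.97 and 6.12 at 0 weeks, 8.36, 7.16 and 6.81 at 3 weeks, 8.19, 8.85 and 8.30 at 12 weeks and 7.58, 8.41 and 7.96 in GnT-IX-deficient mice. Its 0-week arrays lay close together and below all others. It rose by 1.43 (SE 0.32, adjusted p 0.0260) at 3 weeks and by 2.43 (SE 0.32, adjusted p 0.00131) at 12 weeks. The 3-week call did not pass without any 1 of the 0-week arrays or without replicate 1 at 3 weeks, where the difference was 0.97. Ctsc, dipeptidyl peptidase I, which activates the serine proteases of granules, read 5.41, 5.66 and 5.57 at 0 weeks, 7.76, 6.07 and 5.79 at 3 weeks, 7.00, 7.75 and 6.97 at 12 weeks and 6.81, 6.79 and 6.48 in GnT-IX-deficient mice. At 3 weeks replicate 1 stood far above the other 2 arrays, and at 12 weeks all 3 arrays were high. The difference was 0.99 (SE 0.38, adjusted p 0.190) at 3 weeks, short of the threshold, and the rise at 12 weeks was 1.69 (SE 0.38, adjusted p 0.0269). That call was lost without any 1 of the 0-week arrays or without replicate 2 or 3 at 12 weeks, at values of 1.44 to 1.83.

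The remaining 7 cathepsins did not pass the test at either time. Ctsz, a carboxypeptidase, came nearest, at 7.74, 7.84 and 7.99 at 0 weeks and 8.79, 9.93 and 9.24 at 12 weeks, a difference of 1.46 (SE 0.38, adjusted p 0.0530) with no overlap. The 12-week differences of Ctsb and Ctsl, proteases found in most cells, were 0.70 (adjusted p 0.161) and 0.69 (adjusted p 0.172), also with no overlap. Ctso and Ctsf pointed the other way at 3 weeks, with every 3-week array below every 0-week array. Ctso read 6.78, 7.04 and 7.20 at 0 weeks and 6.34, 5.81 and 6.58 at 3 weeks, a difference of -0.76 (SE 0.22, adjusted p 0.0790), and was at 6.63, 6.59 and 7.19 by 12 weeks. Ctsf differed by -0.47 (adjusted p 0.167) at 3 weeks and -0.41 (adjusted p 0.270) at 12 weeks. Ctsa, a carboxypeptidase that also protects the sialidase NEU1, differed by 0.14 and 0.21, within 2 SE.

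Ctsk, the collagen-degrading protease of osteoclasts, is the direct neighbour of Ctss on chromosome 3 in the RefSeq table. It read 3.72, 3.88 and 3.69 at 0 weeks, 4.74, 3.95 and 4.89 at 3 weeks and 3.65, 3.39 and 3.85 at 12 weeks. The 3-week arrays lay above those of both other times, with a difference of 0.76 (SE 0.30, adjusted p 0.214) from 0 weeks and of -0.90 (SE 0.30, adjusted p 0.254) from 3 to 12 weeks. The median difference of the 10 cathepsins was 0.69 at both 3 and 12 weeks.

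Glycosidases gave 1 call among 6 genes. Man2b1, the lysosomal alpha-mannosidase that trims glycoprotein glycans, read 6.75, 6.67 and 6.55 at 0 weeks, 8.44, 7.25 and 7.02 at 3 weeks, 7.96, 8.86 and 7.82 at 12 weeks and 7.53, 7.39 and 7.60 in GnT-IX-deficient mice. Every array after cuprizone lay above the 0-week arrays. Its difference was 0.91 (SE 0.32, adjusted p 0.150) at 3 weeks, and it rose by 1.56 (SE 0.32, adjusted p 0.0184) at 12 weeks. Without replicate 1 or 2 at 0 weeks, or replicate 2 at 12 weeks, the 12-week value was 1.60, 1.56 and 1.23 and missed the threshold. Gusb, beta-glucuronidase, read 7.08, 7.39 and 7.11 at 0 weeks, 9.12, 7.92 and 7.73 at 3 weeks and 8.22, 8.86 and 7.88 at 12 weeks. The groups did not overlap, and the differences were 1.06 (SE 0.32, adjusted p 0.0888) and 1.13 (SE 0.32, adjusted p 0.0794). Hexa, the alpha chain of the hexosaminidase that degrades gangliosides, differed by 0.65 (adjusted p 0.262) and 0.95 (adjusted p 0.0976), again without overlap.

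Gaa, Neu1 and Gla showed overlapping groups at both times. Gaa, acid alpha-glucosidase, which degrades glycogen, read 11.02, 10.71 and 10.57 at 0 weeks and 10.83, 10.33 and 10.27 at 12 weeks. Its differences were -0.23 at 3 weeks and -0.29 at 12 weeks. Neu1, the lysosomal sialidase, differed by -0.19 and -0.35, and Gla, alpha-galactosidase A, by -0.06 and 0.20. The class median was 0.30 at 3 weeks and 0.58 at 12 weeks.

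Among the 9 lipid, protein and regulatory factors, the 1 gene that passed fell. Npc1, the membrane protein that moves cholesterol out of the lysosome, read 6.25, 6.35 and 6.37 at 0 weeks, 5.91, 6.18 and 6.34 at 3 weeks, 5.50, 5.76 and 5.37 at 12 weeks and 5.59, 5.32 and 5.81 in GnT-IX-deficient mice. The 6 arrays at 12 weeks, of both genotypes, lay below all 6 earlier arrays. It fell by 0.78 (log2, SE 0.18, adjusted p 0.0331) between 0 and 12 weeks, after a 3-week difference of -0.18 (adjusted p 0.694). The call was lost whenever 1 of the 6 arrays compared was left out, at values of -0.89 to -0.69. Npc2, the soluble partner that hands cholesterol to NPC1, read 6.62, 6.74 and 6.40 at 0 weeks and 6.98, 7.56 and 7.28 at 12 weeks. Its difference had the opposite sign, 0.69 (SE 0.22, adjusted p 0.130), with no overlap.

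Grn, the precursor of progranulin, which supports lysosomal enzymes, read 10.58, 10.44 and 10.49 at 0 weeks, 11.98, 11.01 and 10.64 at 3 weeks and 11.22, 11.51 and 11.11 at 12 weeks. Its groups did not overlap, and the differences were 0.71 (SE 0.26, adjusted p 0.175) and 0.78 (SE 0.26, adjusted p 0.148). Ppt1, a thioesterase that removes fatty acids from proteins, differed by 0.43 and 0.47 with adjusted p of 0.236 and 0.207. Tfeb, the transcription factor of lysosomal genes, differed by -0.26 (adjusted p 0.458) and -0.39 (adjusted p 0.242), with every array after cuprizone below the lowest 0-week array. Psap, the precursor of the saposins that present sphingolipids to their hydrolases, varied little, from 10.87 to 11.35 over the 12 arrays. Lipa, the acid lipase of cholesteryl esters, Asah1, the acid ceramidase, and Tpp1, a tripeptidyl peptidase, differed by 0.25, -0.23 and -0.35 at 3 weeks and by 0.28, 0.34 and -0.16 at 12 weeks, none past the threshold. The class median was 0.01 at 3 weeks and 0.28 at 12 weeks.

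The 4 membrane proteins divided into 1 gene that rose and 3 that did not pass. Laptm5, a lysosomal transmembrane protein of blood-derived cells and microglia, read 6.96, 5.51 and 6.85 at 0 weeks, 10.32, 8.48 and 8.14 at 3 weeks, 9.68, 10.69 and 10.05 at 12 weeks and 8.92, 9.73 and 9.10 in GnT-IX-deficient mice. All arrays after cuprizone lay above the 0-week arrays, and its difference was the largest of the 38 members at both times. It rose by 2.54 (SE 0.49, 5.82-fold, adjusted p 0.0106) at 3 weeks and by 3.70 (SE 0.49, adjusted p 0.00131) at 12 weeks. Without replicate 2 at 0 weeks the 3-week value was 2.08 and missed the threshold. Lamp1, whose promoter stretch holds 4 E-boxes, read 10.27, 10.31 and 10.20 at 0 weeks, 10.44, 10.08 and 10.42 at 3 weeks, 10.26, 10.28 and 10.38 at 12 weeks and 10.11, 10.17 and 10.46 in GnT-IX-deficient mice. These arrays overlapped throughout. The 12-week difference of Lamp1 was 0.05, with a 95% interval from -0.30 to 0.39. That of Lamp2, which also serves chaperone-mediated autophagy, was 0.19, with an interval from -0.14 to 0.52. Cd63, a tetraspanin of late endosomes and exosomes, differed by 0.02 at 3 weeks and 0.41 (adjusted p 0.300) at 12 weeks.

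Of the 9 V-ATPase subunits measured, 0 passed at 3 weeks, where 3.24% of all genes did. At 12 weeks Atp6v0d2 passed, where 2.64% of all genes did. With 9 genes, nothing is read from these counts. The class median was 0.18 at 3 weeks and -0.11 at 12 weeks. Atp6v0d2, the d2 isoform of the membrane sector known from osteoclasts and macrophages, read 3.26, 3.55 and 3.66 at 0 weeks, 3.81, 3.13 and 3.22 at 3 weeks, 4.37, 5.12 and 5.30 at 12 weeks and 4.17, 4.10 and 4.62 in GnT-IX-deficient mice. The 0-week and 3-week arrays overlapped and the 12-week arrays lay above both. It rose by 1.44 (SE 0.25, 2.71-fold, adjusted p 0.00849) against 0 weeks, and without replicate 2 at 12 weeks the value was 1.34 and missed the threshold. The gene was dim, below the lower quartile of named genes (3.84 to 3.94) on 6 of 12 arrays, so its fold change may be compressed.

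Atp6v0d1, the d1 isoform that most cells use, read 7.71, 7.50 and 7.23 at 0 weeks, 7.61, 7.65 and 7.72 at 3 weeks and 7.60, 7.49 and 7.01 at 12 weeks. These groups overlapped, with differences of 0.18 and -0.11. Atp6v1b2, the brain form of the B subunit in the catalytic sector, read 7.93, 8.32 and 7.88 at 0 weeks, 8.69, 8.67 and 8.72 at 3 weeks and 8.20, 8.21 and 8.14 at 12 weeks. All 3 arrays at 3 weeks were higher than those of both other times, with a difference of 0.65 (SE 0.19, adjusted p 0.0741) from 0 weeks. Atp6ap1, an accessory subunit, was also highest at 3 weeks, with differences of 0.29 (adjusted p 0.457) at 3 weeks and -0.18 (adjusted p 0.695) at 12 weeks. The remaining 5 subunits, Atp6v0b of the membrane sector and Atp6v1a, Atp6v1d, Atp6v1e1 and Atp6v1h of the catalytic sector, differed by -0.29 to 0.23 at 3 weeks and by -0.30 to 0.13 at 12 weeks.

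**Figure D2:**
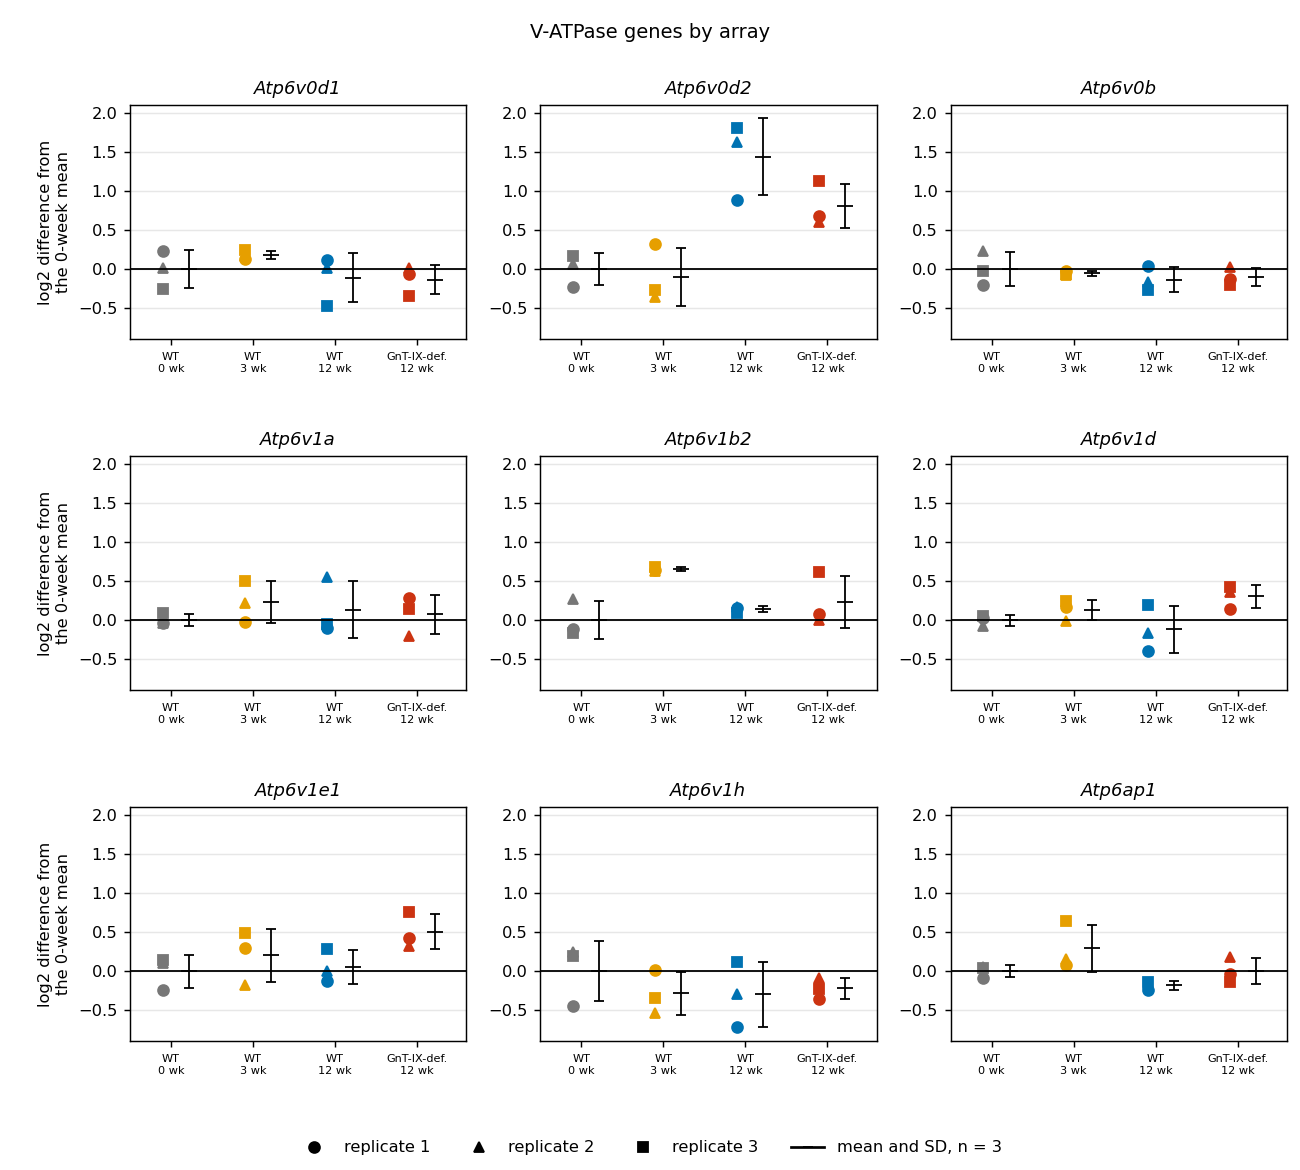
Log2 difference of each of the 9 V-ATPase subunits from its 0-week mean (y axis), 1 panel per gene, with 1 point per array, the replicate number as the marker shape, and the mean and SD of each group of 3. Atp6v0d2 is higher at 12 weeks than at 0 and 3 weeks, Atp6v1b2 is highest at 3 weeks, and the groups of most other subunits overlap.

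**Figure D3:**
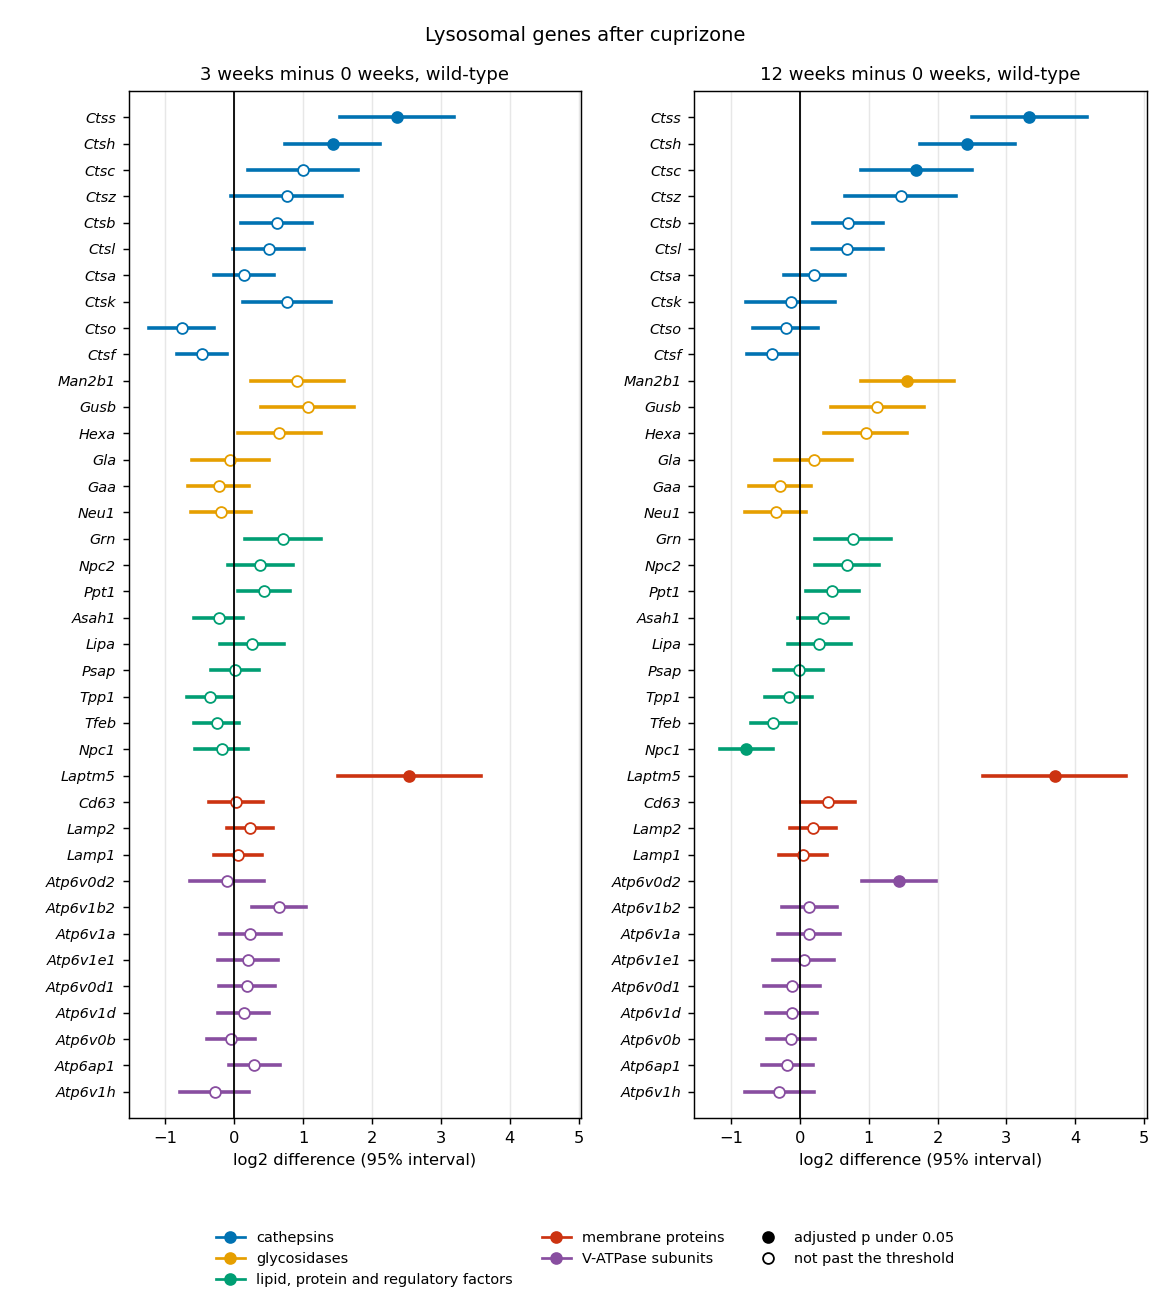
Log2 difference from 0 weeks (x axis) for each of the 38 members in wild-type mice, with its 95% interval, at 3 weeks and at 12 weeks. Filled points passed an adjusted p of 0.05: Ctss, Ctsh and Laptm5 at 3 weeks, and at 12 weeks those 3 with Ctsc, Man2b1, Atp6v0d2 and Npc1, the only one below 0.

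From 3 to 12 weeks of cuprizone, only Atp6v0d2 passed among the 38 members, where 0.082% of all genes did (0.0256% higher, 0.0564% lower). It rose by 1.54 (SE 0.25, 2.91-fold, adjusted p 0.0257), and this is also the test that its 12-week and 3-week differences from 0 weeks are unequal. That call depended on single arrays: it missed the threshold without replicate 2 at 0 weeks, replicate 2 or 3 at 3 weeks, or replicate 2 or 3 at 12 weeks, with differences of 1.36 to 1.82 over all arrays left out in turn. Ctss differed by 0.97 (SE 0.39, adjusted p 0.357), Ctsh by 1.00 (SE 0.32, adjusted p 0.230) and Laptm5 by 1.16 (SE 0.49, adjusted p 0.375). Their 3-week and 12-week arrays overlapped, with replicate 1 at 3 weeks the highest of its group. Without that array 6 members passed, namely Atp6v0d2, Ctsc, Ctsh, Ctss, Ctsz and Laptm5. Asah1 differed by 0.56 (SE 0.17, adjusted p 0.191) and Npc1 by -0.60 (SE 0.18, adjusted p 0.197), both without overlap. Of the 9 V-ATPase subunits, 8 had lower means at 12 than at 3 weeks, by at most 0.51 for Atp6v1b2 (difference -0.51, adjusted p 0.295), and none of the 8 passed. The groups did not overlap for 3 members higher and 5 lower, against 7.83% and 8.1% of all genes, 15.9% in all. The median over the 38 members was 0.07, against 0.01 over all genes.

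Replicate 1 at 3 weeks set much of the spread within that group. It held the highest of the 3 values in 24 of the 38 members (63.2%), where it was the highest in 30.8% of all genes, and it also had the highest mean of microglia markers of the 3 arrays. In wild-type mice at 12 weeks replicate 2 held the highest value in 22 of 38 members (57.9%, against 30.9% of all genes). It also had the highest microglia marker mean of that group. The remaining groups showed no such match. In GnT-IX-deficient mice replicate 3 was highest in 19 of 38 members, but replicate 2 had the highest marker mean (7.94, against 7.36 in replicate 3). At 0 weeks replicate 3 was highest in 14 members, but replicate 1, highest in 11, had the highest marker mean (5.48). The mean shift of the cathepsins from 0 weeks was 1.27, 0.28 and 0.34 in replicates 1, 2 and 3 at 3 weeks and 0.73, 1.17 and 1.03 at 12 weeks. That of the V-ATPase subunits was 0.18, 0.00 and 0.24 at 3 weeks and -0.04, 0.17 and 0.17 at 12 weeks. The dim Atp6v0d2, at 1.44, weighs in these 12-week means, where the class median was -0.11. The median SD over members was 0.36 at 3 weeks, against 0.12 at 0 weeks and 0.26 at 12 weeks. Over all genes the median SD was 0.22 at 3 weeks, 0.20 at 0 weeks and 0.21 at 12 weeks.

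**Figure D4:**
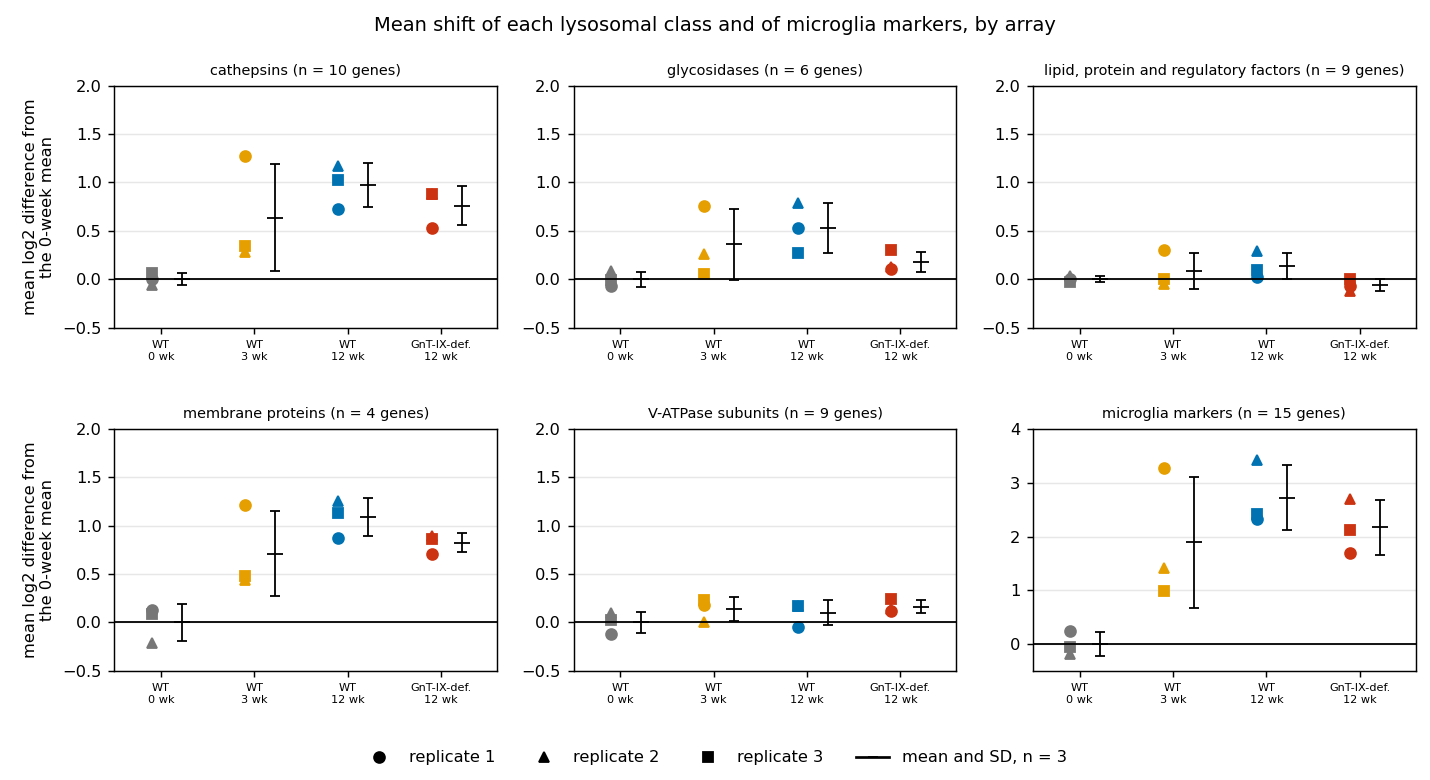
Mean log2 difference from the 0-week mean (y axis) for each class of lysosomal genes and for 15 microglia markers, with 1 point per array, the replicate number as the marker shape, and the mean and SD over 3 arrays; the microglia panel has its own scale. Replicate 1 at 3 weeks is the highest of its group for cathepsins (1.27), glycosidases and membrane proteins, as it is for the microglia markers, while the V-ATPase points stay near 0. Laptm5, with a 12-week difference of 3.70, makes up most of the membrane protein mean, where the class median was 0.30.

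Of the 15 microglia markers, 8 were called higher at 3 weeks and 13 at 12 weeks, where 1.61% and 2.11% of all genes were. All 15 had positive differences at both times. None of the members is among the 15. With the microglia marker mean of each array added to the fit, 0 members passed in any of the 5 comparisons. The same term enlarged the standard errors, by a median of 1.52 times over all genes for 3 against 0 weeks and 1.91 times for 12 against 0 weeks. The marker mean was 5.04 to 5.48 on the 0-week arrays and 7.57 to 8.65 on the wild-type 12-week arrays. Term and time therefore largely coincide in the comparisons against 0 weeks, and this fit cannot separate them there. For 12 against 3 weeks the marker means overlapped (7.57 to 8.65 and 6.22 to 8.51), and standard errors were a median of 1.13 times larger. Over all genes, the fewest called under any alternative fit were 9 at 3 against 0 weeks and 0 at 12 against 0 weeks. The count of 0 members is not read as a trait of these genes. With the term in the fit, the median member difference became -0.08 at 3 weeks and -0.15 at 12 weeks. At 12 weeks Ctss was then 1.32 (SE 0.42), Laptm5 1.08, Atp6v0d2 0.83 and Ctsh 0.65, while Man2b1 was -0.0047 and Ctsc -0.25, and Npc1 was -0.48. The difference of Atp6v0d2 from 3 to 12 weeks was 1.36 (SE 0.26, limma adjusted p 0.112), or 88.0% of its value without the term. Of 10 border macrophage and blood leukocyte markers, whose mean lay between 3.75 and 4.75 on the 12 arrays, 0 were called at 3 weeks. At 12 weeks 1 of them, Ms4a7, rose, by 3.54 (SE 0.50, adjusted p 0.00184), from 4.41, 3.67 and 4.55 to 6.70, 8.61 and 7.94, and 5 of the 10 were higher without overlap. Pf4, of the same list, lay between 5.91 and 7.18 on all 12 arrays, above the array medians. Of 10 endothelial cell and pericyte markers, 3 rose at 12 weeks and 8 were higher without overlap, with a median difference of 0.90 and array means of 6.99 to 7.22 against 6.09 to 6.28 at 0 weeks. Of 10 mature oligodendrocyte markers, 1 fell at 12 weeks and 5 were lower without overlap, with a median of -0.83. Over all genes at 12 weeks, 2.11% were called higher and 0.523% lower, and 10.8% were higher and 9.95% lower without overlap. Of 10 neuron markers, 3 were called higher at 3 weeks, where 1.61% of all genes were, and 0 at 12 weeks. Their array means were 6.06 to 6.65 at 0 weeks, 6.45 to 7.08 at 3 weeks and 6.17 to 6.41 at 12 weeks. All 5 oligodendrocyte precursor markers had positive differences, with medians of 0.75 at 3 weeks and 0.53 at 12 weeks and 0 called at either time. What part each of these cell types had in the members' values was not tested.

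Between GnT-IX-deficient and wild-type mice after 12 weeks of cuprizone, 0 of the 38 members passed in limma, where 0.0256% of all genes did (0.0205% higher, 0.00513% lower). At an unadjusted p under 0.05 there were 5 members (13.2%), against 6.99% of all genes. Means were lower in GnT-IX-deficient mice for Man2b1, by a difference of -0.71 (SE 0.32, adjusted p 0.696), Atp6v0d2, by -0.63 (SE 0.25, adjusted p 0.633), and Grn, by -0.58 (SE 0.26, adjusted p 0.690). Means were higher for Atp6v1e1, by 0.45 (SE 0.21, adjusted p 0.700), and Atp6v1d, by 0.43 (SE 0.18, adjusted p 0.652). Grn read 10.73, 10.81 and 10.55 in GnT-IX-deficient mice, below all 3 wild-type arrays, and Man2b1 was likewise apart, whereas the Atp6v0d2 and Atp6v1d groups overlapped. Atp6v1e1, of the stalk of the pump, read 9.05, 8.95 and 9.38 in GnT-IX-deficient mice and 8.49, 8.63 and 8.91 in wild-type mice, with no overlap.

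The difference by genotype was below 0 for 28 of the 38 members, with a median of -0.12 against -0.01 over all genes. The medians were -0.32 for cathepsins, -0.38 for glycosidases, -0.18 for the lipid, protein and regulatory factors, -0.08 for membrane proteins and 0.08 for V-ATPase subunits. Laptm5 had the lowest value, -0.89 (95% interval -1.93 to 0.15), and Ctsk the highest, 0.54 (adjusted p 0.761). Ctss differed by -0.44 (95% interval -1.27 to 0.39), an interval that includes 0. All 15 microglia markers had lower means in GnT-IX-deficient mice, with a median difference of -0.56 and 0 of 15 called, and their array means overlapped (6.93 to 7.94 against 7.57 to 8.65). All 11 astrocyte markers were also lower (median -0.39, 2 at an unadjusted p under 0.05), as were all 5 oligodendrocyte precursor markers (median -0.33), with 0 called. Means were higher for 7 of 10 markers each of mature oligodendrocytes, neurons, and border macrophages and blood leukocytes. They were lower for 7 of 10 endothelial cell and pericyte markers. The choroid plexus markers of the GnT-IX-deficient arrays (5.93 to 8.50) lay above those of the wild-type 12-week arrays (4.77 to 5.61). The 7 ependymal markers also had higher means in GnT-IX-deficient mice, with a median difference of 0.95, 6 of 7 at an unadjusted p under 0.05 and 0 called. The part of these markers in the members' values was not tested. Groups did not overlap for 1 member higher and 5 lower, or 2.63% and 13.2%, where over all genes the shares were 5.27% and 5.57%, 10.8% in all.

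**Figure D5:**
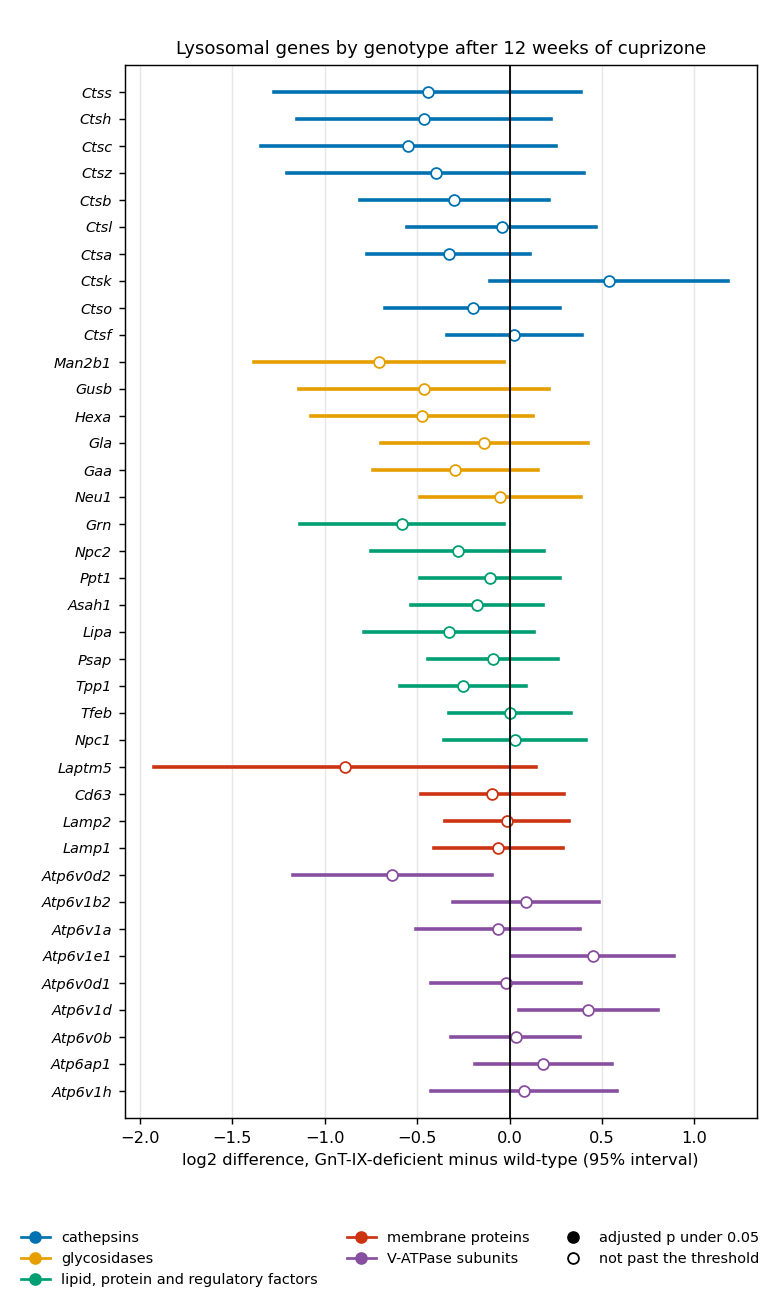
Log2 difference between GnT-IX-deficient and wild-type mice after 12 weeks of cuprizone (x axis) for each of the 38 members, with its 95% interval, coloured by class. All points are open, since none passed an adjusted p of 0.05, and 28 of them lie below 0.

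GnT-IX-deficient mice at 12 weeks were also set against wild-type mice at 0 weeks, a comparison in which genotype and diet differ together and cannot be told apart. In it 3 members were higher (7.89%, where 2.41% of all genes were) and 1 was lower (2.63%, where 1.7% were), with 4.11% of all genes called in all. Ctss was higher by 2.89 (SE 0.39, adjusted p 0.00258), Laptm5 by 2.81 (SE 0.49, adjusted p 0.00833) and Ctsh by 1.97 (SE 0.32, adjusted p 0.00621). Npc1 was lower, with a difference of -0.75 (SE 0.18, adjusted p 0.0330), a call lost without any 1 of the 0-week arrays or replicate 2 of the GnT-IX-deficient mice, at values of -0.79 to -0.62. With the choroid plexus marker mean in the fit, the differences were 3.78 for Ctss, 3.56 for Laptm5, 2.37 for Ctsh and -0.79 for Npc1, standard errors were a median of 1.56 times larger over all genes, and only Ctss passed. Atp6v0d2 differed by 0.81 (SE 0.25, adjusted p 0.0802), Ctsc by 1.15 (SE 0.38, adjusted p 0.0921) and Man2b1 by 0.85 (SE 0.32, adjusted p 0.134), short of the threshold with no overlap. The groups did not overlap for 16 members higher and 6 lower, against 12% and 13.1% of all genes, 25.1% in all. The 0-week arrays are those of the wild-type time comparisons.

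A further 82 of 89 listed lysosomal pathway genes were measured, in lists of other hydrolases, membrane transporters, V-ATPase subunits, cathepsin inhibitors, sorting receptors and TFEB relatives with mTORC1 control. At 3 weeks 1 of the 82 rose (1.22%, where 1.61% of all genes were called higher) and 0 fell. At 12 weeks 4 rose (4.88%, where 2.11% of all genes were called higher) and 0 fell. Slc11a1, the metal transporter NRAMP1 of phagosomes, rose by 1.99 (SE 0.46, adjusted p 0.0286) at 3 weeks and by 3.28 (SE 0.46, adjusted p 0.00184) at 12 weeks. It read 5.98, 4.99 and 6.20 at 0 weeks and 9.15, 9.36 and 8.50 at 12 weeks, with no overlap. Cst7, cystatin F, an inhibitor of cathepsins in immune cells, rose by 1.95 (SE 0.45, adjusted p 0.0340) at 12 weeks. Ctse, an endosomal aspartic protease, rose by 1.50 (SE 0.35, adjusted p 0.0353) at 12 weeks. It was dim at 0 weeks, at 4.30, 3.42 and 4.13, around the lower quartile of named genes (3.84 to 3.94). Atp6v0a4, an isoform of the a subunit of the proton pump, rose by 0.77 (SE 0.18, adjusted p 0.0369) at 12 weeks from values of 3.02 to 3.38, below the lower quartile of named genes.

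No gene of the lists of enzyme sorting (10 genes) or of the TFEB family and mTORC1 control (13 genes) passed at either time. Their medians were 0.10 and 0.25 at 3 weeks and -0.05 and 0.20 at 12 weeks. Between genotypes at 12 weeks 0 of the 82 passed, where 0.0256% of all genes did, with 5 at an unadjusted p under 0.05 (6.1%, against 6.99% of all genes). The lowest value there was that of Slc11a1, -1.19 (SE 0.46, adjusted p 0.627). In GnT-IX-deficient mice at 12 weeks against wild-type mice at 0 weeks, Slc11a1 was higher by 2.09 (SE 0.46, adjusted p 0.0228). The sulfatase gene Arsa, the acid phosphatase gene Acp2 and the phospholipase-like gene Plbd2 were lower there. The differences were -0.85 (SE 0.18, adjusted p 0.0226) for Arsa, -0.997 (SE 0.23, adjusted p 0.0300) for Acp2 and -0.89 (SE 0.22, adjusted p 0.0402) for Plbd2. Acp2 was dim in GnT-IX-deficient mice, at 4.01, 3.82 and 3.75, around the lower quartile of named genes.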

How the data were processed

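The deposited table holds log2 values, made by the authors with RMA in Affymetrix Expression Console 1.4, per the submitters' processing notes. No genome build is given for them in the sources used here. The table held 22206 transcript clusters, of which 19572 had 1 gene symbol and matched RefSeq GRCm38.p6 by Entrez identifier. The other 2634 had none and were left out. For 55 genes with several clusters, no member among them, the brightest was used, leaving 19505 genes with no filter.

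A two-sided moderated test (limma 3.58.1, R 4.3.3) was fitted to all 12 arrays with 1 mean per group and 8 residual degrees of freedom, with Benjamini-Hochberg adjustment over all genes at a threshold of 0.05. Samples were grouped by their titles, and errors are SE from the fit or SD over 3 arrays. The number of arrays limits the precision. Members and gene lists were chosen with earlier results of these data known. Every member past the threshold was given with full statistics. The extremes of each class and up to 4 called genes of each pathway list were also named. Marker lists of 9 cell types were summarised by array means.

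Same-numbered arrays deviated from their group means with correlations of -0.28 to 0.22, so the replicate numbers were not taken as pairs. Alternatives covered centring, a second normalization, dim genes, clusters per gene, the variance model, weights per array, fits of only the arrays compared, a replicate block, marker means as covariates, a minimum difference and omission of single arrays. Plots used matplotlib 3.10.9.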

Additional observations from a re-analysis of the deposited data

Results flagged for a closer look

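Atp6v0d2, a dim gene and the V-ATPase subunit isoform of osteoclasts and macrophages, was the 1 member whose differences from 0 weeks were unequal at the later times by a test of that inequality. It differed from 0 weeks by -0.10 at 3 weeks and by 1.44 at 12 weeks, and the 12-week value was higher than the 3-week value by 1.54 (SE 0.25, limma adjusted p 0.0257, n = 3 arrays in each group). All 3 arrays at 12 weeks lay above all 6 arrays of the earlier times. The adjusted p ranged from 0.0115 to 0.205 over 21 alternatives.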

How the results depend on the processing

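Over 15 called member results, 328 values were computed under alternatives, of which 280 kept their direction and call, 46 lost the call and 2 reversed. With the microglia marker mean as a covariate, the members called were 0 at 3 against 0 weeks (3 in the report), 0 at 12 against 0 weeks (7), 0 at 12 against 3 weeks (1) and 0 for GnT-IX-deficient at 12 weeks against wild-type at 0 weeks (4). The 2 reversals were under that covariate, Man2b1 at -0.0047 and Ctsc at -0.25 at 12 against 0 weeks, and the share due to the larger standard errors was not tested. That covariate did not overlap between the 0-week arrays and those of any later group, so the counts against 0 weeks are not read as a trait of the members. At 12 against 3 weeks it did overlap, and standard errors grew 1.13 times. That count rests on 1 dim gene, Atp6v0d2, with a difference of 1.36 (limma adjusted p 0.112) under the covariate. With the choroid plexus marker mean as a covariate the last comparison gave 1, Ctss, while the called members kept a median of 124% of their difference and standard errors grew 1.56 times. With only the 6 arrays compared, the counts were 11 at 12 against 0 weeks, 0 at 12 against 3 weeks and 8 in the last comparison. Without the dimmest 30% of genes Atp6v0d2 was not tested, and 0 members passed at 12 against 3 weeks. Leaving out each array in turn gave 1 to 4 members at 3 against 0 weeks, 3 to 11 at 12 against 0 weeks, 0 to 6 at 12 against 3 weeks, 0 in every case between genotypes, and 3 to 7 in the last comparison. The lowest counts came without replicate 2 at 0 weeks (1 member, 3 against 0 weeks) and without replicate 2 at 12 weeks (3 members, 12 against 0 weeks). The highest at 12 weeks (11, 6 and 7) came without replicate 1 at 3 weeks. Ctss, Ctsh and Laptm5 at 12 against 0 weeks lost their call in none of the alternatives but the microglia covariate. With the replicate block, 4, 7, 1, 0 and 4 members passed in the 5 comparisons. The added member at 3 weeks was Ctso, lower, and 4 of 12 arrays correlated best with their own replicate number. Over all genes the counts ranged over the alternatives from 9 to 887 at 3 against 0 weeks (632 in the report), 0 to 919 at 12 against 0 weeks (514), 0 to 146 at 12 against 3 weeks (16), 1 to 49 between genotypes (5) and 3 to 1062 in the last comparison (801). Groups of 3 arrays, signals near background for Atp6v0d2, Ctsk and Gla, and the mixed cell content limit what these counts can show.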
